A study of Mus musculus with 9 samples.

Results

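Described here are 8 little-studied genes whose transcripts were far lower in wire-injured mouse arteries than in sham arteries or in injured arteries of mice given a kinase inhibitor: E030013I19Rik, 2210407C18Rik, Gal3st3, Efhd1, Fbxo30, Scube3, Ptprz1 and Tceal6. They are 8 of the 17093 genes in the deposited tables. They were chosen from these same libraries, because the injured libraries lay far below both other groups or the restored libraries far above the injured ones, and no numeric cut-off was used. Their levels in injured arteries against either other group are therefore given as a description, with no test. The comparison of inhibitor-treated with sham arteries was tested, although it uses the same sham and inhibitor-treated libraries that chose the genes.

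RNA was measured in the media, the smooth muscle layer, of femoral arteries from C57BL/6 mice, with 3 libraries in each of 3 groups and 14676891 to 21248740 reads per library. Sham arteries were the operated controls, injured arteries were taken at day 14 after injury, and inhibitor-treated arteries were taken at day 14 after injury from mice given VS-4718. VS-4718 inhibits focal adhesion kinase (FAK), a kinase at the sites where cells attach to matrix. Mice received it orally at a dose of 50 mg/kg, 2 times daily over 2 weeks, and the others received citrate vehicle. The labels do not give the age or sex of the mice, and they do not say whether 1 library is 1 animal, so the p-values reflect the variation among these samples alone, part or all of which may be technical. A sham group given the inhibitor was not analysed here. Levels are read counts per gene, normalised for depth over all 9 libraries, and a gene is called where its limma p, adjusted over all genes of a comparison, is under 0.05.

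As background, the genes do different things. Scube3 encodes a secreted and cell-surface protein of the SCUBE family that can act in bone morphogenetic protein (BMP) and transforming growth factor beta (TGF-beta) signalling. Ptprz1 encodes a receptor-type tyrosine phosphatase, best known in glia, whose ligands pleiotrophin (Ptn) and midkine (Mdk) reduce its activity. Gal3st3 encodes a Golgi enzyme that puts sulfate on galactose of glycans. Efhd1 encodes a calcium-binding EF-hand protein of mitochondria. Fbxo30 encodes the substrate-binding F-box protein of an SCF ubiquitin ligase and is known from wasting skeletal muscle. Tceal6 is an X-linked gene of the TCEAL and BEX families of small proteins. E030013I19Rik is a long non-coding RNA and 2210407C18Rik a protein-coding gene, both without an established function. When smooth muscle cells leave the contractile state after injury they lose contractile proteins, and all levels below come from whole tissue, where fewer cells of a type and less RNA per cell cannot be told apart.

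Stretches of promoter sequence are shown for 2210407C18Rik and the nearby olfactory receptor gene Olfr224. Among genes with a mean of at least 100, Olfr224 was nearest in pattern to 2210407C18Rik over the libraries (log2 profile distance 1.21). Olfr224 was nearer still to Gal3st3 on chromosome 19 (0.72), which has no promoter window here. Each stretch is the 250 bases before the RefSeq start (GRCm38.p6), 5′ to 3′ on the strand of the gene, at chr11:58613493-58613742 and chr11:58570569-58570818, both on the minus strand. Capitals mark TATAAA, the TATA box core, and TGACGTCA, the cyclic AMP response element.
2210407C18Rik: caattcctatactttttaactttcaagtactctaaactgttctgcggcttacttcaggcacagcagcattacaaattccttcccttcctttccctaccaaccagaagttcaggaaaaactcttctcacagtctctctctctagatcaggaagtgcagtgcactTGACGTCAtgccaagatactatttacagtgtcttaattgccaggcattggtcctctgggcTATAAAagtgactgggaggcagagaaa
Olfr224: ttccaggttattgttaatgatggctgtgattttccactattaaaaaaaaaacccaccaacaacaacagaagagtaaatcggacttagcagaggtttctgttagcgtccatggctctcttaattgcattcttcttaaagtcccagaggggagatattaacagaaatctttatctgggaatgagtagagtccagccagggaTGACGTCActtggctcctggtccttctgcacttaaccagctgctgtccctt
Both windows hold TGACGTCA, which was found in 1.79% of 32851 promoter windows of 300 bases, and it begins 87 bases before the start in 2210407C18Rik and 51 bases before it in Olfr224. TATAAA begins 27 bases before the start of 2210407C18Rik and occurs in 13.6% of all windows. The window of Olfr224 holds no TATAAA, and that of Trim58, on the other side of 2210407C18Rik, holds neither motif. TGACGTCA was searched after these sequences had been read, so the match in both is a description. Of the 8 genes, 7 had a promoter window, and 1 of these 7 held TGACGTCA. The RefSeq start of 2210407C18Rik lies inside the longest GENCODE transcript, so a second start upstream of this window exists in that annotation.

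A second pair is shown because Tceal6 and Bex4, X-linked genes of these families, were both almost without reads in injured arteries. The windows are chrX:135210688-135210937 on the minus strand and chrX:136138746-136138995 on the plus strand, and capitals mark CACGTG, the E-box core.
Tceal6: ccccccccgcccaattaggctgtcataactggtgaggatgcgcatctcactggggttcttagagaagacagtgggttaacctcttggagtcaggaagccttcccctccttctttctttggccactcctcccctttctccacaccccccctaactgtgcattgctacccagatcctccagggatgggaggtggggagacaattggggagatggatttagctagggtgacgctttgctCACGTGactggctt
Bex4: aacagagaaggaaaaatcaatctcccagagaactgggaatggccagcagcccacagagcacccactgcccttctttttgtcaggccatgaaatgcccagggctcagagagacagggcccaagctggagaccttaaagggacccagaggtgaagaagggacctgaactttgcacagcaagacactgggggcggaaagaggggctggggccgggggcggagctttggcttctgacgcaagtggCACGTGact
CACGTG begins 14 bases before the start of Tceal6 and 9 bases before that of Bex4. It was present in the 300-base windows of 9 of the 12 TCEAL and BEX genes, against 7.15% of all windows, and those 9 include genes that rose, fell or did not pass the test after injury. It too was picked after the sequences had been read. Of the 8 genes, 7 had a promoter window in the RefSeq table, all but Gal3st3. Among these 7, the CArG box of serum response factor (CC, 6 bases of A or T, GG) was in 0 windows against 1.63% of all windows. CATTCC, the MCAT core bound by TEAD factors, was in 0 of 7 against 14.7%. All motifs were searched on both strands.

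In each of the 8 genes, all 3 injured libraries lay below all 3 sham libraries and below all 3 inhibitor-treated libraries. Across all genes tested, every injured library lay below every sham library in 25.3%, and every inhibitor-treated library lay above every injured library in 26.1%. The 8 were picked for this and their count is read no further. All 8 passed the filter of a mean of at least 10 normalised counts in all 3 tables, and 2210407C18Rik, Gal3st3 and Tceal6 passed it in the tables with injured arteries only through the other group. The mean sham level was from 5.25 times the injured mean, in Fbxo30, to 290 times, in 2210407C18Rik. Per kilobase of exon, mean sham levels ran from 1906 normalised counts for Efhd1, through 1592 for E030013I19Rik, 868 for Scube3, 609 for Fbxo30, 474 for 2210407C18Rik, 245 for Tceal6 and 147 for Gal3st3, to 142 for Ptprz1.

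**Figure D1:**
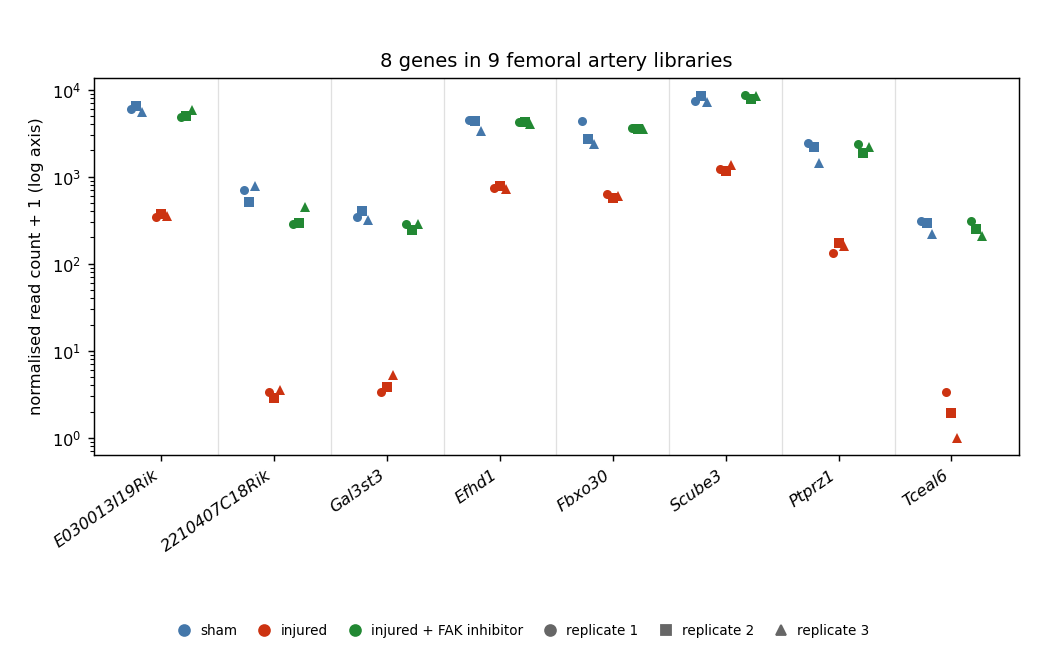
Normalised read count + 1 (log axis) of the 8 genes in each of the 9 libraries; colours are the groups and marker shapes the replicate numbers. All injured libraries lie below the others, and 2210407C18Rik, Gal3st3 and Tceal6 lie between 0 and 4.295 counts there.

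Among the signalling genes, Scube3 (ENSMUSG00000038677, chr17:28142141-28174854, plus strand) was at 7475, 8446 and 7112 normalised read counts in the sham libraries 1 to 3, at 1215, 1149 and 1365 in the injured and at 8625, 7769 and 8348 in the inhibitor-treated ones. The injured libraries lie well below, and the sham and inhibitor-treated ranges overlap. Its injured mean was 16.2% of the sham mean. The inhibitor-treated mean was 107% of it, a log2 difference of 0.12 ± 0.08 (SE; 95% interval -0.07 to 0.31; limma adjusted p = 0.462).

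Ptprz1 (ENSMUSG00000068748, chr6:22875502-23052916, plus strand) was at 2444, 2185 and 1443 in sham, at 130, 173.5 and 159.8 in injured and at 2356, 1847 and 2164 in inhibitor-treated libraries. Sham replicate 3 was the low sham library, and sham replicates 1 and 2 and all inhibitor-treated ones lay between 1847 and 2444. The sham mean was 13.1 times the injured mean. Inhibitor-treated and sham arteries differed by 0.11 ± 0.18 on the log2 scale (95% interval -0.32 to 0.53, limma adjusted p = 0.782), and by -0.11 without sham replicate 3.

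Of the enzymes, Gal3st3 (ENSMUSG00000047658, chr19:5298331-5308738, plus strand) was at 341.5, 403.3 and 320.1 in sham, 2.386, 2.845 and 4.295 in injured and 281.9, 240.3 and 284.5 in inhibitor-treated libraries. The 3 injured libraries held 10 reads together, against 979 in sham, a depth-corrected ratio of 108 with an exact 95% counting interval of 58.5 to 226. This interval and the counting intervals below cover counting error only, leave out variation among libraries and are no test. The 3 inhibitor-treated libraries all lay below the 3 sham libraries, at 75.8% of the sham mean. That difference, -0.38 ± 0.12 on the log2 scale (95% interval -0.66 to -0.11), did not pass the adjustment over all genes (limma adjusted p = 0.111).

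Fbxo30 (ENSMUSG00000047648, chr10:11281330-11298052, plus strand) was at 4399, 2726 and 2369 in sham, at 638.3, 572.8 and 597.8 in injured and at 3615, 3563 and 3488 in inhibitor-treated libraries. Sham replicate 1 stood above the other sham libraries, with a coefficient of variation of 34.2% in sham against 1.79% in inhibitor-treated arteries. The difference between these groups was 0.23 ± 0.20 (95% interval -0.22 to 0.69, limma adjusted p = 0.552). Without sham replicate 1 it was 0.50 and passed the test (limma adjusted p = 0.0247).

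Efhd1 (ENSMUSG00000026255, chr1:87264363-87310839, plus strand) was at 4481, 4357 and 3313 in sham, 732.6, 783.3 and 718 in injured and 4241, 4276 and 4054 in inhibitor-treated libraries. Sham replicate 3 lay below every inhibitor-treated library and the other sham libraries above them. The injured mean was 18.4% and the inhibitor-treated mean 103.5% of the sham mean. The tested difference was 0.07 ± 0.11 (95% interval -0.18 to 0.33, limma adjusted p = 0.749), and -0.06 without sham replicate 3.

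Tceal6 (ENSMUSG00000031409, chrX:135208687-135210687, minus strand) was at 307.4, 294.3 and 217.8 in sham, at 2.386, 0.948 and 0 in injured and at 309.4, 252.3 and 206.3 in inhibitor-treated libraries. The injured libraries held 3 reads in all against 758 in sham, a depth-corrected ratio of 279 with a counting interval of 95.1 to 1355. The inhibitor-treated libraries held 828 reads and overlapped the sham range from end to end. The difference between those groups was -0.08 ± 0.18 (95% interval -0.50 to 0.33, limma adjusted p = 0.828). It was 0.06 without inhibitor-treated replicate 3 and 0.01 without sham replicate 1. Of the 50-base stretches in the annotated transcript of Tceal6, 45.3% also occur in other genes, most often Tceal3 and Tceal5, so reads of these relatives may be shared between them.

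The non-coding E030013I19Rik (ENSMUSG00000086843, chr2:12300946-12312315, plus strand, annotated as antisense) was at 5994, 6528 and 5478 in sham, at 341.2, 367.9 and 355.6 in injured and at 4796, 4995 and 5853 in inhibitor-treated libraries. The 3 injured libraries lay close together, with a coefficient of variation of 3.77%. Sham arteries had 16.9 times the injured mean. The inhibitor-treated mean was 86.9% of the sham mean, with overlapping libraries and a difference of -0.19 ± 0.10 (95% interval -0.42 to 0.03, limma adjusted p = 0.311).

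Finally, 2210407C18Rik (ENSMUSG00000037145, chr11:58608204-58616075, minus strand) was at 693.9, 517 and 778.6 in sham, at 2.386, 1.897 and 2.577 in injured and at 286.7, 289.9 and 449.8 in inhibitor-treated libraries. Injured libraries held 7 reads against 1849 in sham, a depth-corrected ratio of 291.5 with a counting interval of 141 to 726. All inhibitor-treated libraries lay above the injured and below the sham libraries, and their mean was 51.6% of the sham mean. The difference from sham was -0.95 ± 0.21 on the log2 scale (95% interval -1.44 to -0.47, limma adjusted p = 0.0376). The call was lost with edgeR (-0.94, adjusted p = 0.0559) and without inhibitor-treated replicate 1 (-0.84), inhibitor-treated replicate 2 (-0.85), sham replicate 1 (-0.91) or sham replicate 3 (-0.82). In the authors' deposited table the adjusted p of this difference was 0.000387.

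Between inhibitor-treated and sham arteries, then, 1 of the 8 genes was called, and over all 16166 genes tested 6.08% were called. The share called below sham was 0.934% and above it 5.15%. In 6 of the 8 the libraries overlapped, and in 2, Gal3st3 and 2210407C18Rik, every inhibitor-treated library was lower, against 13.1% of all genes. For the 6 genes whose 95% interval holds 0 the intervals bound the difference and do not show that the levels were equal. The widest of these reaches from -0.22 to 0.69, in Fbxo30, and the narrowest from -0.07 to 0.31, in Scube3. Sham replicate 3 was the lowest sham library in 7 of the 8 genes, and 2210407C18Rik was the exception.

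**Figure D2:**
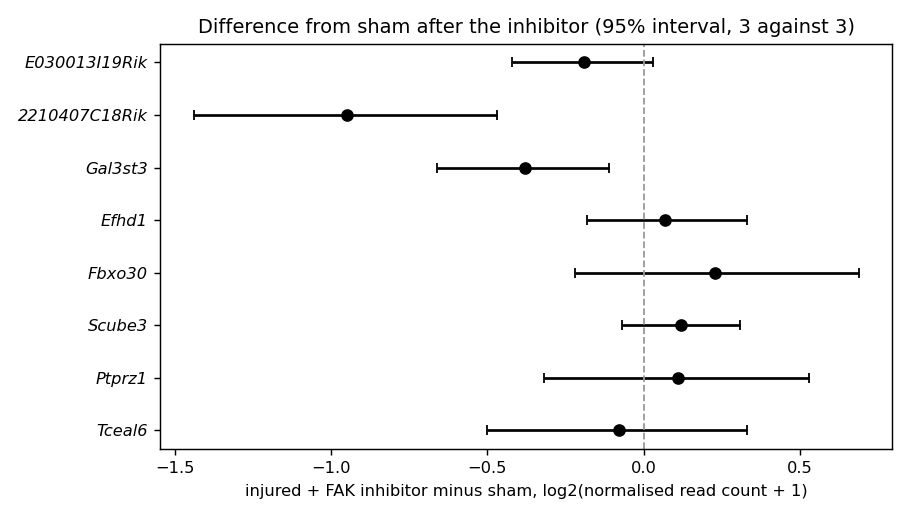
Difference between inhibitor-treated and sham arteries for each of the 8 genes in log2(normalised read count + 1), with the 95% interval of the limma fit from 3 libraries against 3. The intervals of 2210407C18Rik (-1.44 to -0.47) and Gal3st3 (-0.66 to -0.11) lie below 0 and the other 6 hold it.

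The surroundings of the 8 genes differed. E030013I19Rik starts head to head with, and partly inside, Itga8, the integrin alpha 8 gene on the opposite strand (chr2:12106632-12301922). The genes overlap over 977 bases, and 372 of the 3769 exon bases of E030013I19Rik (9.87%) are also exon of Itga8. Itga8 was at 54667, 48032 and 48003 in sham, 3397, 4329 and 6080 in injured and 43424, 39810 and 48327 in inhibitor-treated libraries. It fell by 3.49 ± 0.21 on the log2 scale with injury (limma adjusted p = 1.83e-05) and rose by 3.29 ± 0.21 with the inhibitor (limma adjusted p = 8.39e-05). Per kilobase of exon, E030013I19Rik was at 21.4% to 26.6% of Itga8 in sham, 11.4% to 19.6% in injured and 21.6% to 24.5% in inhibitor-treated libraries. No source used here gives the use of strand in counting, so reads over the shared exon bases cannot be told apart. The same holds for exon bases that antisense genes share with Gal3st3 (16.1%), Efhd1 (12%) and Scube3 (2.24%).

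On chromosome 11, 2210407C18Rik lies among olfactory receptor genes. Olfr224, 37.7 kb away by the gap between the genes, was at 402.5, 347 and 339.7 in sham, 2.386, 1.897 and 2.577 in injured and 218.3, 214.6 and 244.5 in inhibitor-treated libraries. It fell by 6.78 ± 0.27 with injury (limma adjusted p = 7e-06) and rose by 6.13 ± 0.27 with the inhibitor (limma adjusted p = 3.34e-05), and the inhibitor-treated to sham difference was -0.67 (limma adjusted p = 0.0102), a call lost with all 9 libraries in 1 fit (-0.68, adjusted p = 0.077). Both genes held 7 reads in the injured libraries. Olfr224 therefore passed the filter in the 2 comparisons with injured arteries only through the other group. It was also named for its pattern over these same libraries, so its differences there are a description. Of the 50-base stretches of Olfr224, 14.7% occur in other genes, most often Olfr329-ps and Olfr328, and 0% of those of 2210407C18Rik.

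Trim58, a ubiquitin ligase gene known from red cell precursors, starts 24.4 kb from 2210407C18Rik on the other side. It was at 52.07, 65.65 and 62.07 in sham, at 0 in all 3 injured libraries and at 47.46, 54.12 and 69.07 in inhibitor-treated libraries. With a floor of 3 reads over the injured group, sham was at least 60.7-fold higher and inhibitor-treated arteries at least 58.1-fold higher. The exact 95% counting intervals, which give a slightly lower bound, begin at 48.8 and 46.8. Trim58 was lower in injured than in sham arteries (limma adjusted p = 4.82e-05). It was higher in inhibitor-treated than in injured arteries (limma adjusted p = 0.000175). In both comparisons it passed the filter only through the other group. Gm12254, 98.9 kb away, passed neither test, and Olfr328, Olfr329-ps and Olfr330 had values only in the table of sham and inhibitor-treated arteries, where none was called.

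**Figure D3:**
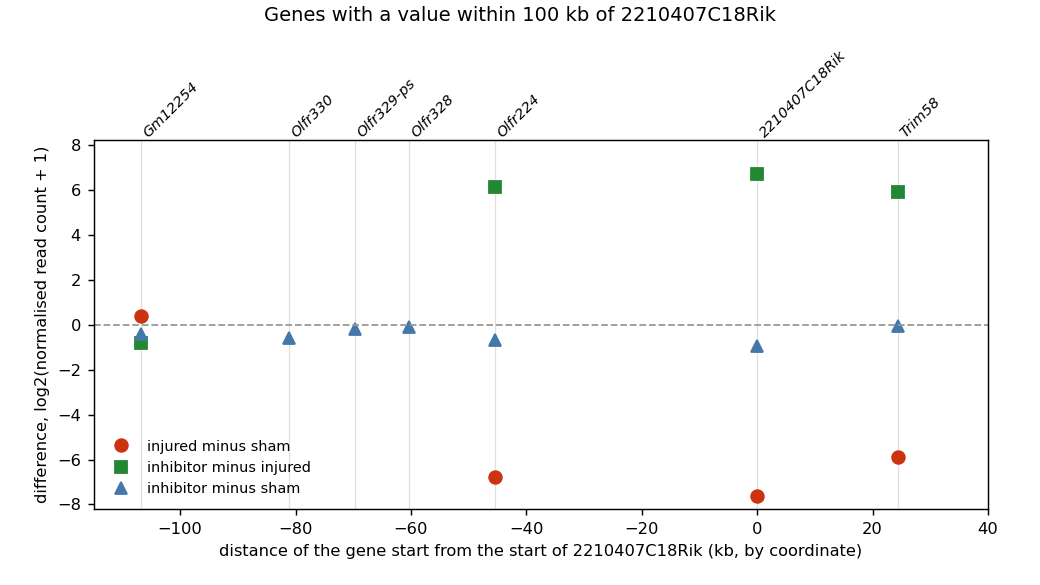
Log2 differences (vertical axis) of genes with a value within 100 kb of 2210407C18Rik against the distance of their starts from its start in kb. Olfr224, 2210407C18Rik and Trim58 have injured-minus-sham differences of -6.78, -7.63 and -5.87, and Gm12254 has 0.38.

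Near the other genes, Aass, a lysine-breakdown enzyme gene 19.3 kb from Ptprz1, was at 145.2, 99.65 and 128.5 in sham, 21.48, 14.22 and 15.46 in injured and 100.6, 82.56 and 186.3 in inhibitor-treated libraries. It fell by 2.80 ± 0.28 with injury and rose by 2.72 ± 0.36 with the inhibitor (limma adjusted p = 0.000143 and 0.00118). All 4 genes with values near Scube3 were called, with log2 differences between injured and sham arteries of -0.45 in Zfp523, -0.50 in Ppard, -0.57 in Anks1 and 0.98 in Def6. None of 7 genes near Gal3st3 and none of 2 near Fbxo30 was called in any comparison. Within 100 kb of any of the 8, 8 genes of 24 tested were lower and 2 higher in injured than in sham arteries, where 16.8% and 20.6% of all genes were. With the inhibitor 7 of 24 were higher and 1 lower, against 17.6% and 18.5%. The 100 kb window was set after values were seen, and the lower genes include Itga8 and Olfr224, so these shares are a description. The lower genes Olfr224 and Trim58, and the higher gene Chrng near Efhd1, passed the filter only through the group where they were high. No gene with a value lies within 100 kb of Tceal6.

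In the families and pathways of the 8 genes some relatives rose and others fell. Over 84 listed relatives, 41 of 75 tested were called between injured and sham arteries, 24 higher and 17 lower (54.7%, against 37.3% of all genes). Between inhibitor-treated and injured arteries 37 of 74 were called, 17 higher and 20 lower (50%, against 36.1%). Between inhibitor-treated and sham arteries 6 of 71 were called (8.45%, against 6.08%). The first 2 comparisons share the injured libraries. The median log2 difference of the relatives between injured and sham arteries was 0.07, and that of all genes was 0.00.

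In the TCEAL and BEX families, 3 of 9 tested genes fell and 2 rose with injury, with a list median of -0.16. Bex4 came closest to Tceal6, at 129.2, 118.4 and 104.5 in sham, 1.193, 2.845 and 0 in injured and 80.68, 69.71 and 94.51 in inhibitor-treated libraries. It fell by 5.83 with injury (limma adjusted p = 8.18e-05) and rose by 5.37 with the inhibitor (limma adjusted p = 0.000487). Bex4 passed the filter in these comparisons only through the other group. Its 4 injured reads give a depth-corrected sham-to-injured ratio of 89.9 with a counting interval of 34.8 to 332. Tceal3, the nearest relative by shared sequence, was at 614.8, 504.1 and 497.6 in sham, 149.1, 79.65 and 137.4 in injured and 450.9, 386.2 and 414.4 in inhibitor-treated libraries, and it fell by 2.18 and rose by 1.82. Bex3 fell by 0.89 and rose by 0.65.

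Tceal7 and Bex1 of these families went the other way, and both passed the filter only through the injured libraries. Tceal7 was at 0, 0 and 1.089 in sham and at 76.36, 131.8 and 6.012 in injured libraries (limma adjusted p = 0.00604), with injured replicate 3 far below the other injured libraries. Bex1 was at 1.001, 2.345 and 4.356 in sham and at 41.76, 51.21 and 8.589 in injured libraries, a rise of 3.05 (limma adjusted p = 0.0116) that was 2.60 and missed the threshold without injured replicate 2 (limma adjusted p = 0.0516). It was also missed with quantile normalisation (2.02) and without injured 2, sham 3 and inhibitor 3 (2.94). Its inhibitor-treated libraries were at 6.645, 4.586 and 4.544 (-2.17, limma adjusted p = 0.0431), and that call was lost without any 1 of inhibitor-treated replicates 1 to 3 or injured replicates 1 and 2 (-2.32 to -1.72), with quantile normalisation (-2.16) and without injured 2, sham 3 and inhibitor 3 (-1.64). Of the 50-base stretches of Bex4, 49.7% occur elsewhere, most often in Bex1. Tceal5, which shares sequence with Tceal6, was at 59.08, 71.52 and 78.4 in sham and 39.37, 81.55 and 27.49 in injured libraries and was not called (limma adjusted p = 0.237). It was called without injured replicate 2 (-1.06, limma adjusted p = 0.0347) and with quantile normalisation (-1.16).

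The ligands of Ptprz1 were high where Ptprz1 was low. Ptn was at 127.2, 112.5 and 200.4 in sham, 1048, 569 and 900.1 in injured and 151.9, 162.4 and 141.8 in inhibitor-treated libraries, and it rose by 2.50 with injury (limma adjusted p = 0.000243) and fell by 2.41 with the inhibitor (limma adjusted p = 0.000303). Mdk was at 229.3, 182.9 and 198.2 in sham, at 1201, 548.1 and 897.6 in injured and at 197.4, 200 and 195.4 in inhibitor-treated libraries, and it rose by 2.04 and fell by 2.08. In both, the 3 injured libraries lay above all others, where the injured libraries of Ptprz1 lay below. Sdc3, a syndecan that also binds pleiotrophin, rose by 1.81 and fell by 1.45, and Fyn, a Src-family kinase, rose by 1.25 and fell by 1.09. Sdc3 stayed 0.38 higher in inhibitor-treated than in sham arteries (limma adjusted p = 0.0128), a call lost without sham replicate 1 or inhibitor-treated replicate 2 (0.36 in each), with all 9 libraries in 1 fit (0.37) and without injured 2, sham 3 and inhibitor 3 (0.37).

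Ncam1, an adhesion molecule that can bind Ptprz1, was the only partner listed that fell with injury. It was at 6524, 6765 and 5986 in sham, 1101, 766.2 and 739.5 in injured and 5979, 5619 and 5331 in inhibitor-treated libraries, and it fell by 2.91 and rose by 2.72. Of the 12 tested genes of this list, 6 rose and 1 fell with injury, and 1 rose and 6 fell with the inhibitor, with medians of 0.58 and -0.57. Nrcam rose by 1.30 and fell by 2.00. Ptprg, the related phosphatase, was at 725, 692.9 and 896.2 in sham and 896, 929.3 and 1245 in injured libraries (limma adjusted p = 0.0893). Between inhibitor-treated and injured arteries it was -0.41 and not called (limma adjusted p = 0.06), and was called without injured replicate 1 (-0.50), with DESeq2 (-0.43), in the authors' deposited table (-0.43) and with all 9 libraries in 1 fit (-0.41). That 1 fit also called it between injured and sham arteries (0.40).

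**Figure D4:**
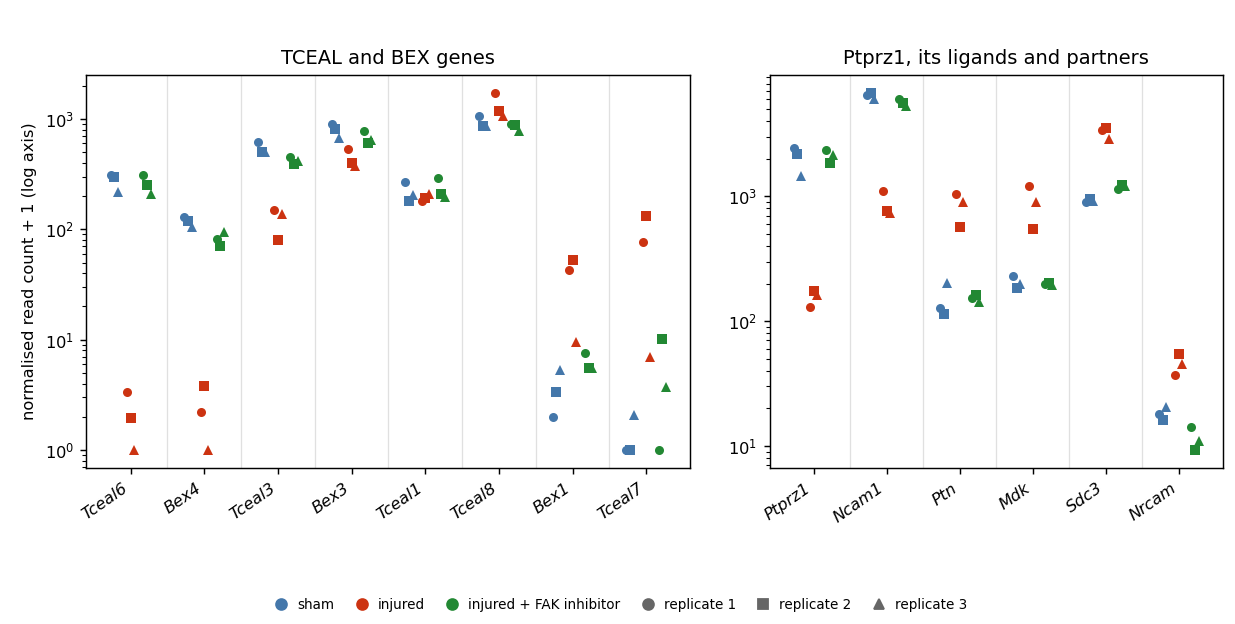
Normalised read count + 1 (log axis) by library for Tceal6 with 7 TCEAL and BEX relatives (left) and for Ptprz1 with its ligands Ptn and Mdk and 3 partners (right). Injured libraries are low in Tceal6, Bex4, Tceal3, Bex3, Ptprz1 and Ncam1 and high in Bex1, Ptn, Mdk, Sdc3 and Nrcam.

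Around Scube3, 5 of 17 tested BMP and TGF-beta genes rose and 5 fell with injury, with a median of -0.09. Bmpr1b, a type I BMP receptor, was at 799.1, 571 and 600 in sham, 77.55, 66.38 and 93.62 in injured and 444.2, 636.6 and 511.6 in inhibitor-treated libraries. It fell by 3.04 (limma adjusted p = 2.12e-05) and rose by 2.73 (limma adjusted p = 0.000115). Bmpr1a, the other type I receptor listed, fell by 1.26 and rose by 1.17. The paralogues were far lower than Scube3 in reads and went the other way, with Scube1 at 9.012, 11.72 and 6.534 in sham and 25.06, 25.6 and 37.79 in injured libraries, a rise of 1.59 (limma adjusted p = 0.0123). The call was lost with quantile normalisation (0.91, adjusted p = 0.112) and without injured 2, sham 3 and inhibitor 3 (1.48, adjusted p = 0.0818). Scube1 passed the filter in this comparison only through the injured libraries. Scube2 rose by 1.80 (limma adjusted p = 0.0408) and fell by 1.36 with the inhibitor (limma adjusted p = 0.0238). The first call of Scube2 was lost with edgeR (1.64), with quantile normalisation (1.22), without injured 2, sham 3 and inhibitor 3 (1.68), and without injured replicate 1 (1.69), injured replicate 3 (1.54), sham replicate 1 (1.67) or sham replicate 3 (1.31), and the second with all 9 libraries in 1 fit (-1.36), with quantile normalisation (-1.13), and without injured replicate 1 (-1.24) or any 1 inhibitor-treated library (-1.39 to -1.34).

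Among the sulfotransferase genes listed with Gal3st3, 4 of 11 tested rose and 2 fell with injury, with a median of 0.56. The paralogue Gal3st1 was at 8.011, 7.034 and 7.622 in sham and at 22.67, 29.4 and 28.34 in injured libraries, a rise of 1.68 (limma adjusted p = 0.00646). The call was lost with quantile normalisation (0.99, adjusted p = 0.0623) and without injured 2, sham 3 and inhibitor 3 (1.62, adjusted p = 0.0737). Gal3st1 passed the filter in this comparison only through the injured libraries. Gal3st2 fell by 1.82 from 26.03, 31.65 and 16.33 to 7.159, 8.534 and 3.436 (limma adjusted p = 0.0165), a call lost without sham replicate 1 (-1.76) or sham replicate 2 (-1.63). It was at 2.848, 9.173 and 6.362 in inhibitor-treated libraries, which all lay below the sham ones. Gal3st2 passed the filter only through the sham libraries. Chst10, which makes the HNK-1 sulfate epitope, fell by 1.59 and rose by 1.48, the latter not called without injured 2, sham 3 and inhibitor 3 (1.26). Chst1, a keratan sulfate sulfotransferase, rose by 1.21 and fell by 1.63.

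Efhd2, the cytosolic paralogue of Efhd1, was at 1666, 1576 and 1465 in sham, 2569, 2440 and 1597 in injured and 1338, 1647 and 1476 in inhibitor-treated libraries. Neither difference passed (0.45 and -0.54, limma adjusted p = 0.0829 and 0.0608). Both passed with DESeq2 (0.48 and -0.56), with all 9 libraries in 1 fit (0.46 and -0.54), with quantile normalisation (0.56 and -0.63), in the authors' deposited table (0.48 and -0.56) and without injured replicate 3 (0.67 and -0.75). Of the 13 genes listed with it for mitochondrial calcium, 5 rose and 2 fell with injury, and 2 rose and 5 fell with the inhibitor. Mcub, the inhibitory subunit of the mitochondrial calcium uniporter, rose by 2.17 and fell by 2.28, and the pore subunit Mcu rose by 0.67, not called without injured 2, sham 3 and inhibitor 3 (0.58), and fell by 0.51. Mcur1, a regulator of the uniporter, fell by 0.61 and rose by 0.57.

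For Fbxo30, the list of ubiquitin ligase genes had 2 of 13 higher and 4 lower with injury. Fbxo32, the muscle ligase atrogin-1, was at 4330, 3590 and 3200 in sham, 1376, 1376 and 1268 in injured and 3515, 3673 and 4140 in inhibitor-treated libraries, and it fell by 1.46 with injury and rose with the inhibitor (limma adjusted p = 8.48e-05 and 8.36e-05). Trim63, the other classical ligase of muscle wasting, rose by 3.67 with injury (limma adjusted p = 0.00966). It was at 10.01, 5.862 and 23.96 in sham and 144.4, 571.8 and 46.38 in injured libraries. In inhibitor-treated libraries it was at 0.9492, 66.96 and 10.91 (-3.77 against injured, not called, limma adjusted p = 0.0668). Within each group its libraries ranked as the summed skeletal muscle markers given below did, and the part of skeletal muscle in its level was not tested. The paralogue Fbxo40 was at 1400, 1329 and 1163 in sham and 233.9, 1240 and 185.5 in injured libraries, where injured replicate 2 also held the most skeletal muscle transcripts. Fbxo40 fell by 1.78 (limma adjusted p = 0.0491), and the call was lost when any library except injured replicate 2 was left out (-1.86 to -1.27), with edgeR or DESeq2 and in the authors' deposited table (-1.24 in each), with a mean of at least 50 (-1.78) and with quantile normalisation (-1.80). Without that library, the rise with the inhibitor was 2.07 and was called (limma adjusted p = 0.000986), against 1.22 with it (limma adjusted p = 0.182).

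Kif11, the mitotic motor that Fbxo30 is known to target, was at 23.03, 30.48 and 19.6 in sham, 151.5, 205.8 and 182.1 in injured and 151.9, 140.3 and 63.62 in inhibitor-treated libraries. It rose by 2.84 with injury and was the largest difference between inhibitor-treated and sham arteries among the relatives called there, at 2.17 (limma adjusted p = 0.00974). Without sham replicate 1 this was 2.15 with a limma adjusted p of 0.0536. The other genes called there were Sdc3 (0.38), Bmp4 (-0.35), Fbxo40 (-0.54), Rbx1 (-0.32) and Fbxo31 (-0.34). The calls of Bmp4, Fbxo40 and Fbxo31 were each lost in at least 8 alternatives. Without sham replicate 1, 0 of the relatives were called, so the call of Rbx1 was lost there too.

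By the distance between log2 profiles over the 9 libraries, among 11665 genes with a mean of at least 100, the genes most like Efhd1 were Shroom3 (distance 0.24), the smooth muscle potassium channel subunit Kcnmb1 (0.31) and Mtus2 (0.37). Those most like E030013I19Rik were the gene of the integrin alpha 8 ligand nephronectin, Npnt (0.47), Col4a6 (0.65) and Gja6 (0.90). For Ptprz1 they were Npnt (0.64), Adra1d (0.74) and Aknad1 (0.77), for Scube3 Csdc2 (0.44), Fblim1 (0.45) and Epha1 (0.47), and for Fbxo30 Smad9 (0.48), Gipc2 (0.50) and Shroom3 (0.56). The nearest for 2210407C18Rik was Olfr224 (1.21), which was also the nearest for Gal3st3 (0.72). Tceal6 had Lgr6 (1.42), Sost (1.87) and Olfr224 (1.89). The 9 points of each profile fall into the 3 groups that chose the genes, so this is a description.

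Several marker lists, though not all, moved with the same groups. The 12 smooth muscle markers summed to between 598870 and 789494 normalised counts in sham, 193568 and 221156 in injured and 696847 and 711851 in inhibitor-treated libraries, and 11 of 12 fell with injury and rose with the inhibitor. The mean sham sum was 3.35 times the injured one, and the single markers differed by between -2.36 and 0.18 on the log2 scale with injury. The differences of the 8 genes on that scale were -2.35 for Fbxo30, -2.44 for Efhd1, -2.63 for Scube3, -3.69 for Ptprz1, -4.08 for E030013I19Rik, -6.42 for Gal3st3, -7.15 for Tceal6 and -7.63 for 2210407C18Rik. All 10 macrophage markers rose, from sums of 3879 to 5381 in sham to 32494 to 49555 in injured libraries, and lay at 5410 to 9633 with the inhibitor. Fibroblast sums were 61938 to 75315, 111297 to 144808 and 50607 to 53262 in the same order. Of the 10 fibroblast markers 7 rose and 1 fell with injury, and 7 fell and 1 rose with the inhibitor. Pi16 was the marker against its list, at -1.20 with injury and 0.40 with the inhibitor. Endothelial sums were 25985 to 39149 in sham, 34549 to 50729 in injured and 31194 to 32824 in inhibitor-treated libraries. The sham and injured ranges overlap. Of the 10 endothelial markers 6 rose and 0 fell with injury, and 7 fell and 0 rose with the inhibitor.

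Skeletal muscle markers summed to 538826 in injured replicate 2, where the remaining injured libraries had 62961 and 32196, and to 30847 in sham replicate 3, where the remaining sham libraries had 7714 and 5216. Inhibitor-treated libraries 1 to 3 were at 2449, 38142 and 8578. Injured replicate 2 was the highest injured library in 3 of the 8 genes and the lowest in 3. Sham replicate 3 also had the lowest smooth muscle sum of its group and an adipocyte sum of 77954, against 38373 and 33384. Adipocyte sums were 59696 to 94365 in injured and 29694 to 38341 in inhibitor-treated libraries. Of the 10 markers 2 rose and 1 fell with injury, and 9 fell and 1 rose with the inhibitor. The marker against its list was Ucp1, the uncoupling protein of brown fat, at 996.3, 801.9 and 5325 in sham, 19.09, 24.66 and 33.5 in injured and 992.9, 1370 and 1866 in inhibitor-treated libraries. Ucp1 fell by 5.96 with injury (limma adjusted p = 0.000192) and rose by 5.71 with the inhibitor (limma adjusted p = 4.38e-05). Hepatocyte markers reached 31507 in inhibitor-treated replicate 3 and at most 195.4 elsewhere, and erythroid markers lay at 42473 to 92864 in inhibitor-treated and at 1319 to 8014 in other libraries. Schwann cell and neuronal markers, listed because Ptprz1 is a glial gene, rose in 9 of 11 while Ptprz1 was lowest in the injured libraries. The sums were 1070 to 2035 in sham, 3146 to 4643 in injured and 1759 to 2949 in inhibitor-treated libraries. No marker was at 0 in every library of a group except 1 hepatocyte marker in injured arteries. The part of these cell types in the levels of the 8 genes was not tested.

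**Figure D5:**
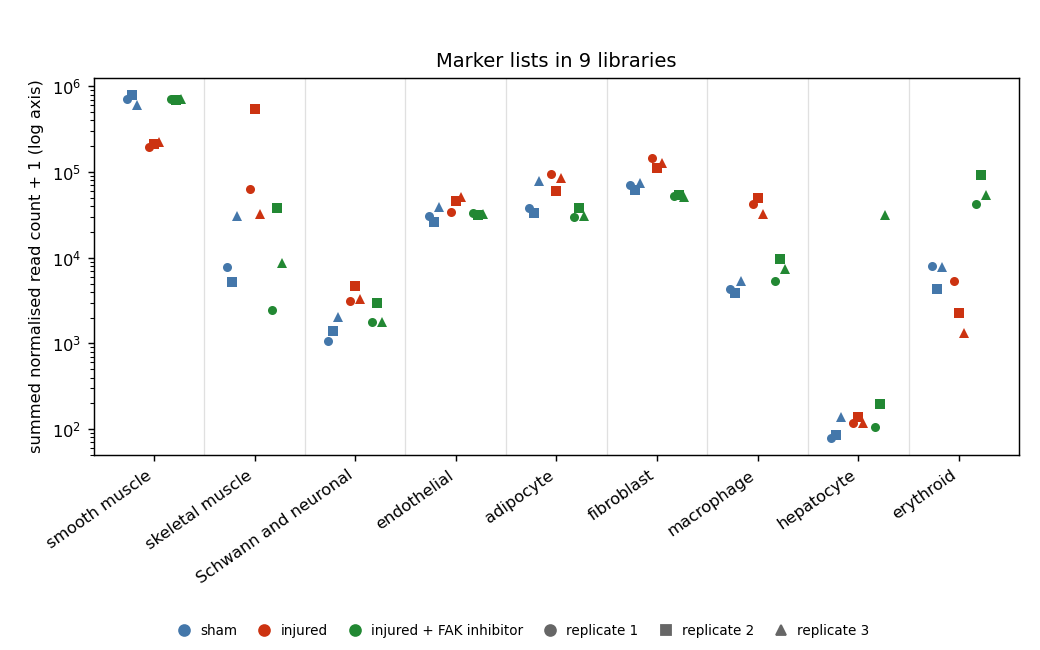
Summed normalised read counts + 1 (log axis) of 9 marker lists in each library, with colours for groups and shapes for replicates. The smooth muscle sum lies between 193568 and 221156 in injured libraries and at 598870 or more in all others, and the macrophage sum is highest in injured libraries.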

How the data were processed

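Per the labels, RNA was taken from femoral artery media of C57BL/6 mice after removal of fat and adventitia, with the lumen rinsed with lysis reagent. The authors deposited 3 tables, 1 for each pair of groups, with the normalised signal of each library per gene, log2 fold changes and p-values per the file headers. These values were recognised as read counts divided by 1 factor per library and table: whole reads were recovered for 100% of values within 0.01, 14676891 to 21248740 per library, and shared libraries gave the same reads in both tables. The 9 libraries were rescaled together by median-of-ratios over the 16750 genes in at least 2 tables, and levels are on this scale. No source used here names the aligner, the counting program or its strand setting. The build was mm10 (GRCm38), per the submitters' processing notes, and GENCODE vM21 gave positions.

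Tests used limma 3.58.1 in R 4.3.3 on log2(deposited value + 1) within the table of each pair, with a trended variance, a two-sided moderated test, a mean of at least 10, Benjamini-Hochberg adjustment over all genes and a threshold of 0.05, so log2 differences understate changes of low genes. Errors are SE beside differences. The scripts were tested on simulated data. Alternatives were edgeR 4.0.16 and DESeq2 1.42.0 on the recovered read counts, other pseudocounts, filters and scalings, left-out libraries and the authors' deposited log2 fold changes and adjusted p-values. The smallest two-sided p of an exact permutation test with 3 libraries a group is 0.1, so none was run. Counting intervals are exact at 95% and cover counting error only.

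The 8 genes, their relatives, the markers and the alternatives were chosen with earlier results of these data known. Named were the 8 genes, up to 3 relatives per list and comparison with the largest difference, their paralogues, the 3 genes nearest in pattern and neighbouring genes. The 100 kb neighbourhood and the motifs TGACGTCA and CACGTG were chosen after values or sequences were seen.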

Additional observations from a re-analysis of the deposited data

How the results depend on the processing

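With 3 libraries a group, small differences from sham are limited by replicate spread, and counts of 10 reads or fewer in injured arteries limit the size of the largest differences. Over the alternatives the 7 genes not called against sham stayed so, apart from Fbxo30 without sham replicate 1 (0.50). Signs turned for Efhd1 (-0.06 to 0.15 over single libraries left out, -0.04 without injured 2, sham 3 and inhibitor 3), Ptprz1 (-0.11 to 0.26, and -0.13) and Tceal6 (-0.23 to 0.06), and for Tceal5 between inhibitor-treated and injured arteries (-0.16 to 0.60). The cause was not tested.

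Leaving out single libraries gave 0 to 1 of the 8 genes called against sham, 0 to 4 of the relatives (6 with all libraries) and 518 to 854 of all genes (983 with all). edgeR called 0 of the 8 and 3 relatives, and with all 9 libraries in 1 fit 1 relative was called. Without injured 2, sham 3 and inhibitor 3, 2 relatives were called against sham, and 21 relatives (37 with all) and 3295 genes (6099 with all) between inhibitor-treated and injured arteries, where fewer libraries were fitted. Single omissions gave 26 to 47 relatives and 4080 to 7926 genes in that comparison, and 33 to 46 relatives and 4356 to 7277 genes between injured and sham arteries. Replicate numbers did not pair the libraries (correlations of -0.076 to 0.192), and with the replicate block 5762 genes (6076 without) were called between injured and sham, 5747 between inhibitor-treated and injured and 877 between inhibitor-treated and sham arteries, with 1 of the 8. With the block, Efhd2 and Ptprg gained and Scube2 lost the call between injured and sham arteries. By Pearson correlation in place of distance, at most 1 of the 3 genes nearest to each of the 8 was the same.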
